A study of Mus musculus with 30 samples.

Results

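Transcripts of 10 genes of immune checkpoints and of extracellular adenosine formation were followed through 6 cell populations sorted from mouse mammary tumours. The genes were chosen by name, with earlier results of these data known, from the 14118 genes of the count matrix, and all 10 were present. No further filter on level was applied for that choice, and each gene of the matrix held at least 72 counts over all libraries. Cd274, Pdcd1lg2, Havcr2, Lgals9, Cd80 and Cd86 act in the co-signalling of T cells, Sirpa and Cd47 form a pair that restrains phagocytosis, and Nt5e and Entpd1 encode ectonucleotidases. The tumours arose in FVB/N-Tg(MMTVPyVT)634Mul/J mice, in which the MMTV promoter drives the polyoma middle T antigen in mammary epithelium. All groups share this transgene and no group was treated. Each of 5 mice gave 1 tumour of 750 mm3, numbered 5, 6, 8, 10 and 11, and the labels give no age. Every tumour was sorted into CAF1 (CD45- CD31- CD90+ CD34-) and CAF2 (the same gate with CD34+), the fibroblast groups; Endothelial (CD45- CD31+); and 3 groups of CD45+ F4/80+ macrophages, CD206hi (CD206+ with low MHC class II), CD206neg (CD206- with low MHC class II) and CD206pos (CD206+ with high MHC class II). That makes 30 bulk RNA-seq libraries, with n = 5 in each group.

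PD-L1 (Cd274) and PD-L2 (Pdcd1lg2) are ligands of PD-1, a receptor that dampens activated T cells. CD80 and CD86 bind CD28, which stimulates, and CTLA-4, which inhibits. TIM-3 (Havcr2) is an inhibitory receptor of T cells and myeloid cells, and galectin-9 (Lgals9) is one of its reported ligands. CD47 on a cell's surface engages SIRP alpha (Sirpa) on macrophages and holds back engulfment. CD39 (Entpd1) degrades extracellular ATP and ADP to AMP, and CD73 (Nt5e) turns AMP into adenosine, which acts on receptors of immune, endothelial and stromal cells.

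The sequences just before the start sites of 4 genes are shown because each pair was described together in the macrophages: Havcr2 and Lgals9 were highest in CD206neg, and Cd274 and Pdcd1lg2, neighbours on chromosome 19 with 22824 bases between them, were highest in CD206pos. Each is 250 bases long, on the gene's own strand, in GRCm38.p6 (the assembly of mm10), from RefSeq, which had entries for 8 of the 10 genes (none for Cd86 and Sirpa). Capitals mark matches, on either strand, to an ETS core (GGAAGT) or an interferon-stimulated response element (ISRE).
Havcr2, chr11:46454681-46454930, plus strand: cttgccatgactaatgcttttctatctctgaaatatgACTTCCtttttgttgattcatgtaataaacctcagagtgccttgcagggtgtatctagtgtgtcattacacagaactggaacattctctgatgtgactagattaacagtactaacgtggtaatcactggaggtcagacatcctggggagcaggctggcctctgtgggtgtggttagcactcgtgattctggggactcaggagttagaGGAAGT
Lgals9, chr11:78984925-78985174, minus strand: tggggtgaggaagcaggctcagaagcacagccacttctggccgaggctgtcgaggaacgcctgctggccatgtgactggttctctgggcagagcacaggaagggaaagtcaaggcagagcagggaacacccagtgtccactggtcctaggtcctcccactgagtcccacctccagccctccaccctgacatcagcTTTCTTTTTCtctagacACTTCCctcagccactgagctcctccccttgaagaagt
Cd274, chr19:29367188-29367437, plus strand: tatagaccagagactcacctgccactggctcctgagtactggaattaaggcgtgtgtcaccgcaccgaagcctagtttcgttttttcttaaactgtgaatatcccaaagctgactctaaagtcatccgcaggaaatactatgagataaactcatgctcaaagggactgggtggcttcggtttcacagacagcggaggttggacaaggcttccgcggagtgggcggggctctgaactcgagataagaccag
Pdcd1lg2, chr19:29410669-29410918, plus strand: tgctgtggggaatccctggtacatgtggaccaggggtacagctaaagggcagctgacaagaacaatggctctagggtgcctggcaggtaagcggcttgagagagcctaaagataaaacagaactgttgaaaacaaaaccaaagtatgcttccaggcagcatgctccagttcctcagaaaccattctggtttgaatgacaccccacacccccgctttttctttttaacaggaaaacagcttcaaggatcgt
The ETS core stood at -213 and -6 in Havcr2 and at -38 in Lgals9, counted back from -1 at the base before the start site, and the response element stood at -55 in Lgals9. Of 32536 RefSeq windows of this length, 19.8% held the ETS core and 2.98% the response element. The gamma-interferon site TTCNNNGAA (7.04% of windows) and the E-box CACGTG (6.04%) were in none of the windows of the 8 genes. The letters ACGTG of a hypoxia element, which the E-box contains (16.7% of windows), were in those of Cd47 and Havcr2, the AP-1 letters TGANTCA (6.73%) in those of Cd80 and Havcr2, and the NF-kB letters GGGANNNCC (15.9%) in those of Lgals9, Nt5e and Pdcd1lg2. These are matches of letters only.

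Library totals ran from 6292411 to 11957076 counts. Levels are CPM (counts scaled to a common library total) after scaling by TMM factors, which ran from 0.547 to 1.67, and a count of 3 was worth 0.251 to 0.477 CPM before that scaling. Differences are log2 fold changes with SE, called at a Benjamini-Hochberg adjusted p under 0.05 in edgeR's quasi-likelihood test over all genes. Tumour, shared by libraries of 1 animal, was not in the fit unless a block is stated, nor in any fit that left out libraries. The macrophage markers (9 of 9 in the matrix) summed to 31827 to 121413 CPM in the macrophage libraries and to 16.2 to 100.5 CPM in the fibroblast and endothelial libraries. Other markers crossed gates: the luminal epithelial list (9 of 9 genes) summed to 229 to 1765 CPM in CAF1, 9.82 to 499 in CAF2, 156 to 2037 in Endothelial and 26.9 to 1034 in macrophages. H2-Aa, an MHC class II chain, stood at 11.9 to 155 CPM in CD206hi and at 525 to 9016 CPM in CD206pos. In CD206neg it stood at 17.8, 490 and 551 CPM in tumours 5, 10 and 11, the last 2 above every CD206hi library. It stood at 14383 and 2897 CPM in the CD206neg libraries of tumours 6 and 8, although the labels give low MHC class II for all 5 and only those 2 data columns say high. For the 10 genes, calls against CD206neg are therefore given with and without those 2 libraries where they differ. For other genes the values include all 5 CD206neg libraries only. In bulk libraries, fewer cells of a type and less RNA per cell cannot be told apart.

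Sirpa and the co-signalling genes other than Lgals9 were mostly macrophage transcripts. Lgals9 had its highest mean in CD206neg but was high in every group, and CD206pos (274 ± 39.0 CPM) overlapped Endothelial (237 ± 40.4). Entpd1 had its highest mean in Endothelial, Cd47 differed least between groups, and Nt5e was highest in CAF2 and CD206neg. Against the 15 macrophage libraries, the 10 fibroblast libraries were lower in 8 of 10 members, where 30.8% of all 13610 genes tested were lower, and higher in none, where 37.3% were higher (68.1% in either direction). Cd47 (log2 fold change -0.03 ± 0.12) and Nt5e (0.33 ± 0.42) did not pass. Of the 8, Pdcd1lg2, Havcr2 and Cd86 were too low to be tested within the fibroblasts. They entered this fit through the macrophages, so they could only be lower or not called, whatever the share over all genes. Endothelial libraries were lower than macrophages in 8 members, where 24.7% of all genes were lower, and higher in Entpd1, where 36.5% were higher (61.3% in either direction). Pdcd1lg2, Havcr2, Cd80 and Cd86 had at most 4 counts in any Endothelial library and entered the fit through other groups, so the same limit holds for them. The median log2 fold change of the 10 members was -3.29 for fibroblasts and -3.25 for Endothelial (-3.12 and -2.58 with the members at the counting floor set to 3 counts per library), beside 0.10 and 0.17 over all genes. With library totals in place of TMM factors these all-gene medians became 0.41 and 0.89, and the endothelial call was lost for Cd47 (log2 -0.01) and for Lgals9, whose sign turned (0.08). Relative to the median of all genes, Lgals9 was at -0.86 under TMM and -0.82 under library totals.

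**Figure D1:**
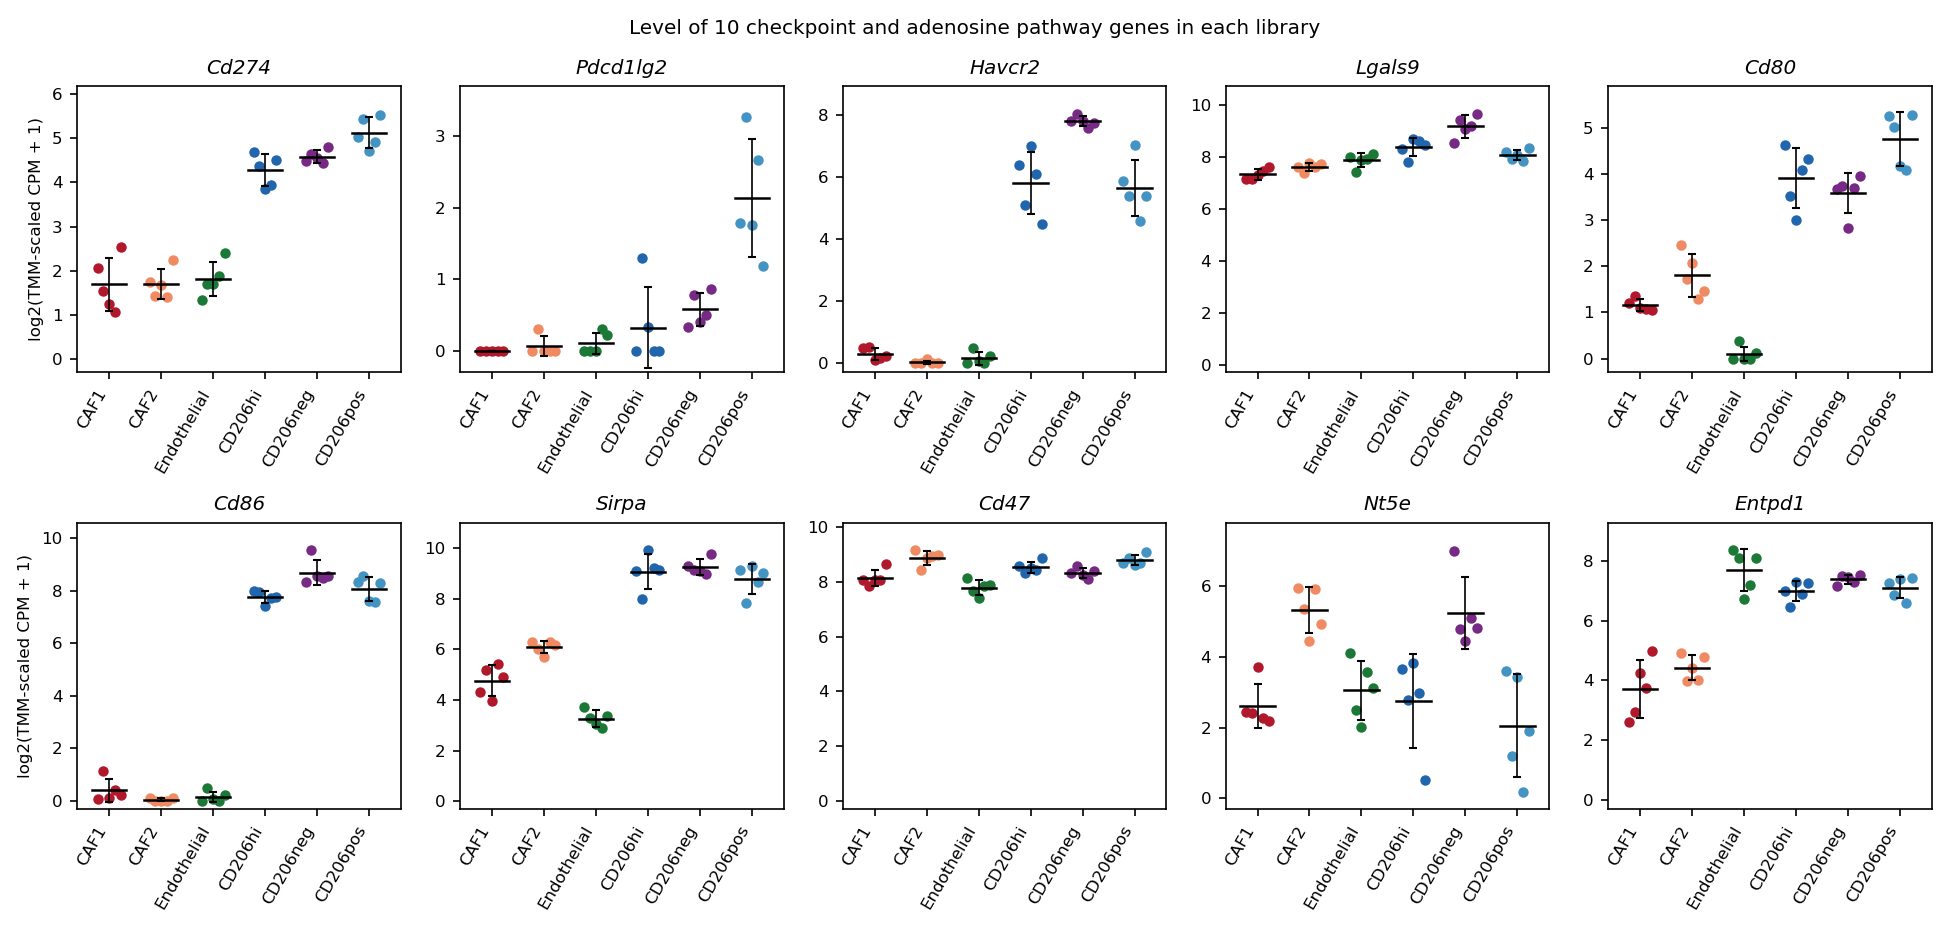
Level of each of the 10 genes, as log2(TMM-scaled CPM + 1), in every library of the 6 populations; points are the 5 tumours in the order 5, 6, 8, 10 and 11 from left to right, lines are group means and bars are SD. Cd274, Pdcd1lg2, Havcr2, Cd80, Cd86 and Sirpa are highest in macrophage groups, Entpd1 in Endothelial, and Nt5e in CAF2 and CD206neg.

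Within the macrophages the CD206neg group differed from both others. CD206hi was lower than CD206neg in 4 of 10 members (Havcr2, Lgals9, Cd86 and Nt5e), where 3.90% of 11052 genes were lower, and higher in none, where 6.14% were higher. CD206pos was lower than CD206neg in 3 members (Havcr2, Lgals9 and Nt5e), where 5.85% of genes were lower, and higher in 2 (Pdcd1lg2 and Cd80), where 8.85% were higher. Pdcd1lg2, at 3 or 4 counts per CD206neg library, entered the fit through CD206pos, so it could only be higher there or not called. The comparisons with CD206neg share its libraries. CD206hi and CD206pos differed in none of the 10 members at an adjusted p under 0.05, where 0.190% of all genes did (0.00905% higher and 0.181% lower in CD206hi); 3 members (Cd274, Pdcd1lg2 and Cd80) had an unadjusted p under 0.05, and with tumour as a block or with DESeq2 2 members (Cd274 and Pdcd1lg2) were called; over all genes the block called 0.878%. With tumour as a block, 8 members differed between CD206pos and CD206neg, adding Cd274, Cd86 and Cd47, where calls over all genes also rose, from 14.7% to 25.3%. Without the CD206neg libraries of tumours 6 and 8, the counts were 1 (Nt5e) against CD206hi and 3 (Havcr2, Lgals9 and Nt5e) against CD206pos. With library totals in place of TMM factors no member differed between CD206hi and CD206neg.

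**Figure D2:**
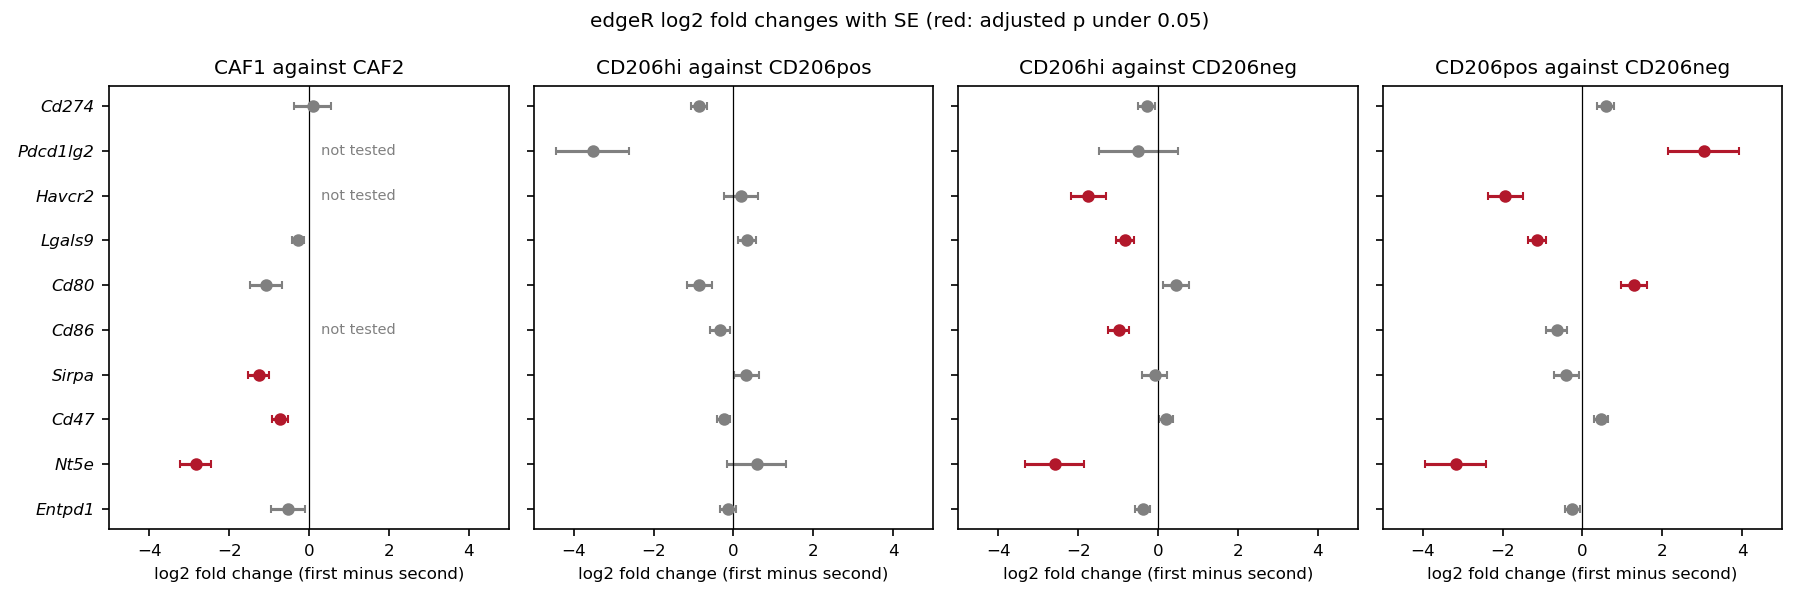
Log2 fold change of each gene with its SE in 4 comparisons within a lineage (edgeR, n = 5 libraries per group); red points have an adjusted p under 0.05. Nt5e has the lowest value in CAF1 against CAF2 and in both comparisons with CD206neg, at -2.84, -2.59 and -3.17, and Pdcd1lg2 has the lowest in CD206hi against CD206pos, at -3.53, which was not called.

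Cd274 (Entrez gene 60533, chromosome 19, 29362107 to 29388095) encodes PD-L1. In the order of tumours 5, 6, 8, 10 and 11, it stood at 31.5, 42.2, 25.0, 29.1 and 45.1 CPM in CD206pos, at 21.4, 24.0, 22.4, 20.6 and 26.9 CPM in CD206neg, and at 24.9, 19.7, 13.4, 14.4 and 21.9 CPM in CD206hi. Every CD206pos library was above every CD206hi library, while CD206neg overlapped both. CD206hi was lower than CD206pos in 5 of 5 tumours, with a log2 fold change of -0.87 ± 0.20 that edgeR did not call (adjusted p 0.123), and that it called with tumour as a block (adjusted p 0.0217), as did DESeq2 (0.0170). CD206pos was above CD206neg in 5 of 5 tumours by a log2 of 0.58 ± 0.20 (adjusted p 0.0624, and 0.0238 with the block). Without the CD206pos library of tumour 8 this difference was also called (adjusted p 0.0347). The other populations held far less: 2.47 ± 1.52 CPM in CAF1, 2.31 ± 0.834 in CAF2 and 2.61 ± 1.04 in Endothelial (SD), which overlapped one another and lay below all macrophage libraries. The log2 fold change against macrophages was -3.38 ± 0.22 in fibroblasts (adjusted p 3.07e-14) and -3.24 ± 0.29 in Endothelial (8.08e-11).

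Pdcd1lg2 (58205, chromosome 19, 29410919 to 29472927), which encodes PD-L2, was close to the detection limit outside CD206pos. CD206pos libraries held 24, 40, 25, 43 and 8 counts, or 2.45, 8.70, 2.40, 5.37 and 1.29 CPM. CD206neg libraries held 3 or 4 counts each (0.512 ± 0.25 CPM), and CD206hi libraries held 0 counts in tumours 5, 10 and 11, 2 in tumour 8 and 10 in tumour 6. All CD206pos libraries lay above all CD206neg libraries, whereas the CD206hi library of tumour 6 (1.47 CPM) overlapped CD206pos. CD206pos exceeded CD206neg by a log2 of 3.04 ± 0.89 (adjusted p 0.0273, and 0.0115 with the block). That call was lost without the CD206neg libraries of tumours 6 and 8 (adjusted p 0.123), and without any 1 of the CD206neg libraries of tumours 5, 6, 8 or 10 or the CD206pos libraries of tumours 6 or 10, with adjusted p from 0.0511 to 0.0779. Against CD206hi the difference was called only when the CD206hi library of tumour 6 was left out (adjusted p 0.0257), with tumour as a block (0.0267) or in DESeq2 (0.0109), and not in edgeR without a block (CD206hi minus CD206pos -3.53 ± 0.91, adjusted p 0.198). CAF1 libraries had no count, which allows up to 0.276 to 0.367 CPM, and CAF2 and Endothelial libraries had at most 3, so no fold change is given against them.

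PD-L2 and CD80 are also found on dendritic cells. A list of dendritic cell markers (7 of 9 genes analysed) summed to 27.9 to 355 CPM in CD206pos, 8.37 to 451 in CD206hi and 16.4 to 40.7 in CD206neg, and Clec9a was at 0 in all CD206neg and CD206pos libraries. Its genes did not run alike. In the same order of groups, the means were 3.85, 2.25 and 0.976 CPM for Zbtb46 but 4.82, 1.49 and 17.5 for Ccr7. The monocyte list (5 of 6 genes) summed to 243 to 511 CPM in CD206pos, 87.0 to 195 in CD206hi and 13.5 to 58.0 in CD206neg. Within it, Ccr2 had means of 273, 96.6 and 32.4 CPM, and Ly6c2 of 0.591, 0.0437 and 0.0569. Both lists were also high in CAF2, at 299 to 463 and 347 to 563 CPM, so their genes are not confined to those cells. In the CD206pos libraries of tumours 5, 6, 8, 10 and 11, the dendritic sum was 204, 168, 27.9, 122 and 355 CPM. The part of dendritic cells and monocytes in the macrophage differences was not tested.

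Havcr2 (171285, chromosome 11, 46454931 to 46481255), which encodes TIM-3, was highest in CD206neg. There it stood at 226, 261, 225, 191 and 215 CPM. CD206hi held 82.5, 32.9, 127, 67.1 and 21.7 CPM, and CD206pos 57.4, 40.7, 129, 22.8 and 41.4 CPM. Every CD206neg library lay above every other macrophage library, and tumour 8 was highest in both CD206+ groups, which overlapped. CD206hi was lower than CD206neg by a log2 fold change of -1.74 ± 0.44 (adjusted p 0.0146, and 0.00046 with the block) and CD206pos by -1.93 ± 0.44 (0.00706, and 0.000167 with the block). The first call was lost without the CD206neg libraries of tumours 6 and 8 (log2 -1.68, adjusted p 0.0777) and under library totals (0.0698). Outside macrophages no library had more than 6 counts, with means of 0.245 ± 0.171 CPM in CAF1, 0.0168 ± 0.0375 in CAF2 and 0.124 ± 0.166 in Endothelial.

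Lgals9 (16859, chromosome 11, 78962979 to 78984924), which encodes galectin-9, was detected in all 30 libraries with at least 1108 counts. CD206neg held 370.3, 695, 544, 598 and 822 CPM, CD206hi 322, 225, 421, 393 and 358, and CD206pos 293, 243, 274, 231 and 328. All CD206neg libraries were above all CD206pos libraries, and the CD206neg library of tumour 5 fell within the CD206hi range. CD206pos was lower than CD206neg by -1.15 ± 0.23 (adjusted p 0.0025, and 0.000818 with the block), and CD206hi by -0.82 ± 0.23 (0.0269, and 0.0109 with the block). The second call did not survive the loss of the 2 CD206neg libraries (adjusted p 0.107), of any 1 of the CD206hi libraries of tumours 5, 6 or 11, or of any 1 of the CD206neg libraries of tumours 6, 10 or 11 (0.0507 to 0.0776). Endothelial libraries held 237 ± 40.4 CPM, CAF2 198 ± 20.8 and CAF1 163 ± 23.8. Endothelial exceeded CAF1 in 5 of 5 tumours by a log2 of 0.55 ± 0.20 (adjusted p 0.0295, and 0.0102 with the block). That call was lost without any 1 of the libraries of tumours 5, 6 or 8 in CAF1 or 5, 10 or 11 in Endothelial (0.0545 to 0.0778).

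Cd80 (12519, chromosome 16, 38457430 to 38495958) and Cd86 (12524, chromosome 16, 36568956 to 36666158) encode the ligands of CD28 and CTLA-4, and they were ordered differently among the macrophages. Cd80 stood at 37.1, 31.1, 17.0, 16.0 and 37.7 CPM in CD206pos, at 23.7, 10.4, 6.95, 16.0 and 19.0 CPM in CD206hi and at 11.7, 12.3, 6.08, 12 and 14.5 CPM in CD206neg. CD206pos lay wholly above CD206neg and overlapped CD206hi. CD206pos exceeded CD206neg by a log2 of 1.3 ± 0.33 (adjusted p 0.0131, and 0.000601 with the block). The call was lost without the CD206neg libraries of tumours 6 and 8 (1.1, adjusted p 0.0882). CD206hi was below CD206pos in 5 of 5 tumours (log2 -0.85 ± 0.32, adjusted p 0.542). Fibroblasts had low but counted Cd80, at 1.23 ± 0.208 CPM in CAF1 and 2.64 ± 1.24 in CAF2 (log2 -1.07 ± 0.40, adjusted p 0.0854), whereas 3 of 5 Endothelial libraries had no count and none had more than 3.

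Cd86 was instead highest in CD206neg, at 321, 748, 375, 356 and 378 CPM. CD206pos held 319, 382, 193, 190.2 and 311 CPM, and CD206hi 252, 245, 172, 210.4 and 216 CPM. All CD206neg libraries were above all CD206hi libraries, and the library of tumour 6 stood above the other 4. In that library the MHC class II list (5 of 5 genes) summed to 118038 CPM, against 1287 to 25868 in the other CD206neg libraries, and the luminal epithelial list to 1034 CPM, against 30.8 to 246; their part in the Cd86 value was not tested. CD206hi was lower than CD206neg in 5 of 5 tumours by -0.99 ± 0.26 (adjusted p 0.0193, and 0.00171 with the block). Without the CD206neg library of tumour 6 the difference was -0.73 (adjusted p 0.0594). It was also not called without the CD206neg libraries of tumours 6 and 8. CD206pos was lower in 5 of 5 tumours by -0.64 ± 0.26 (adjusted p 0.102, and 0.0171 with the block). CAF2 and Endothelial libraries had at most 4 counts, and CAF1 had 11 in tumour 6 and at most 3 in the others.

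**Figure D3:**
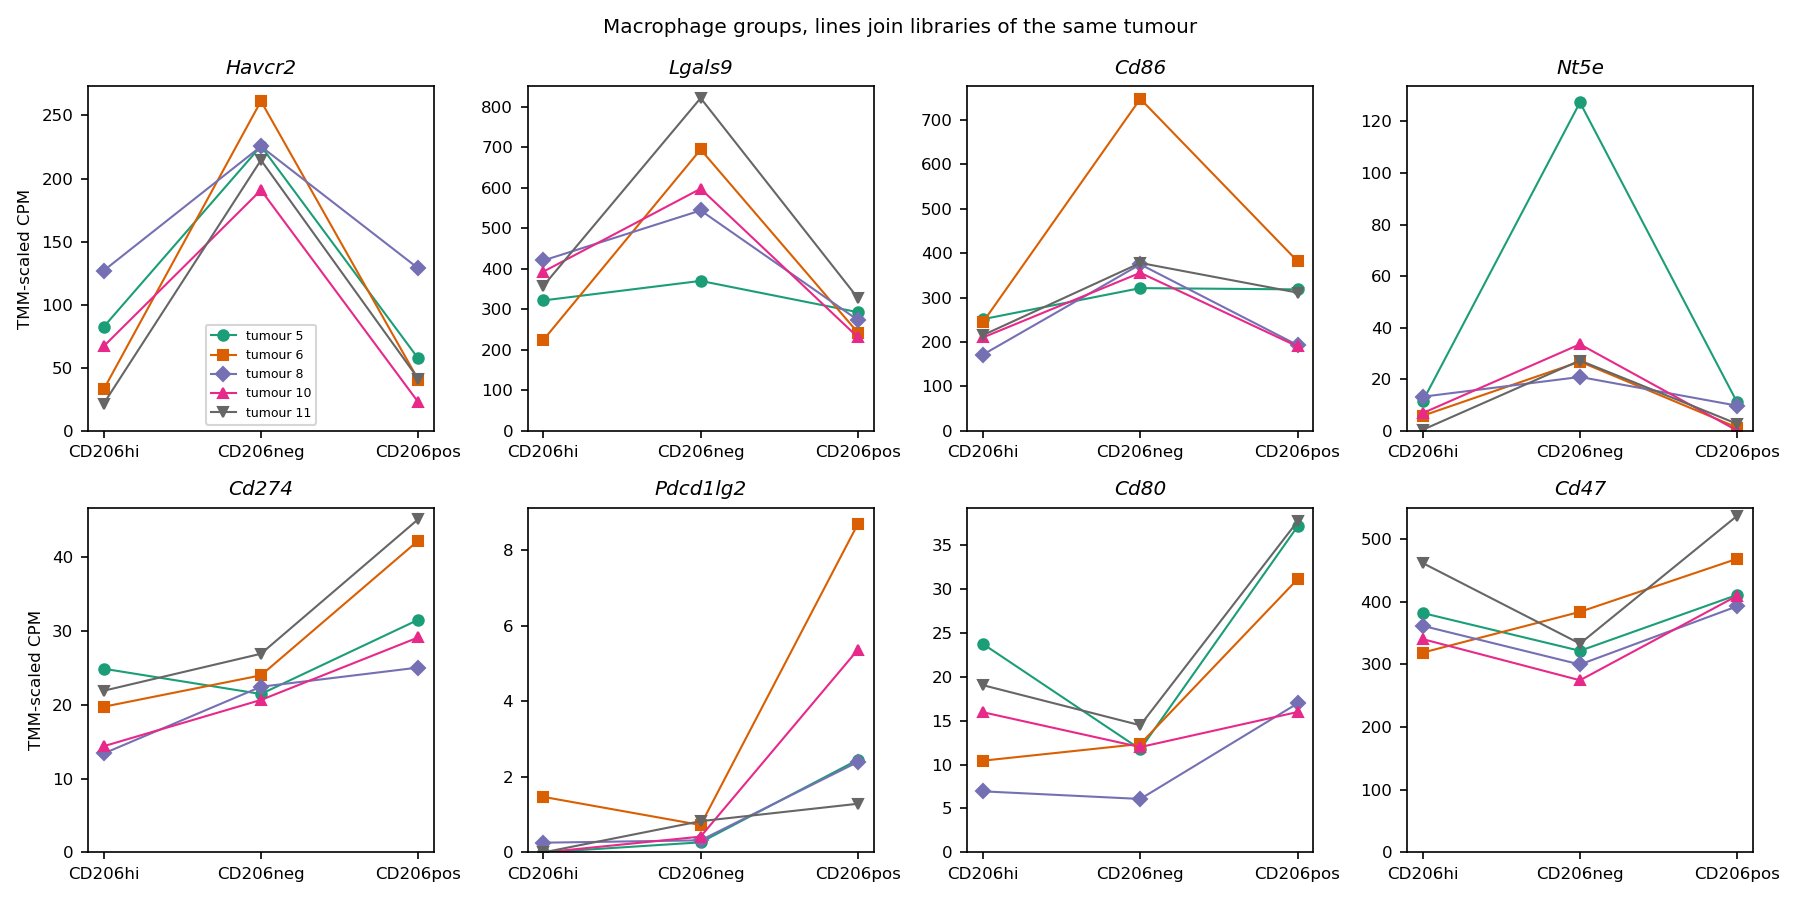
TMM-scaled CPM of 8 of the genes in the 3 macrophage groups, with lines joining the libraries of a tumour. Havcr2, Lgals9, Cd86 and Nt5e peak in CD206neg in 5 of 5 tumours, while Cd274, Pdcd1lg2 and Cd80 are highest in CD206pos in 5 of 5.

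Sirpa (19261, chromosome 2, 129591042 to 129632228), the macrophage receptor for CD47, stood at 617, 566, 543, 496 and 871 CPM in CD206neg. In CD206hi it stood at 544, 252, 966, 585 and 565 CPM, and in CD206pos at 559, 225, 626, 402 and 520.2 CPM. The 3 macrophage groups overlapped, none of their differences was called, and without TMM factors CD206hi had the highest mean. Below them the groups did not overlap: CAF2 held 67.9 ± 11 CPM, CAF1 28.0 ± 11.4 and Endothelial 8.84 ± 2.27. Within the fibroblasts, CAF1 was lower in 5 of 5 tumours by -1.27 ± 0.25 (adjusted p 0.00378). Endothelial was lower than CAF1 by -1.66 ± 0.31 (9.54e-05) and than CAF2 by -2.94 ± 0.33 (1.53e-08). Sirpb1a and Sirpb1c, related genes that could share reads with Sirpa, had means of at most 7.68 and 2.01 CPM in any group.

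Cd47 (16423, chromosome 16, 49851328 to 49912503) encodes the other side of that pair and varied least, its highest group mean being 2.14 times its lowest. Its order was CAF2 (476 ± 81.3 CPM), CD206pos (443 ± 59.5), CD206hi (373 ± 54.9), CD206neg (322 ± 40.8), CAF1 (286 ± 67.1) and Endothelial (223 ± 42.5), and each neighbour in that order overlapped the next. CAF2 held 568, 348, 462, 491 and 510 CPM, and CAF1 267, 229.8, 266, 264 and 403. The groups overlapped through tumour 11 of CAF1 and tumour 6 of CAF2, but CAF1 was lower in 5 of 5 tumours. CAF1 was lower by a log2 fold change of -0.72 ± 0.20 (adjusted p 0.0249, and 0.0136 with the block). That call was lost without any 1 of the CAF1 libraries of tumours 6 or 10 or the CAF2 libraries of tumours 5, 10 or 11 (0.0509 to 0.0770). Endothelial was lower than CAF2 by -1.10 ± 0.18 (1.14e-05). All CD206pos libraries were above all CD206neg libraries (log2 0.46 ± 0.17, adjusted p 0.0831, 0.0282 with the block and 0.0113 in DESeq2).

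Nt5e (23959, chromosome 9, 88327609 to 88372089), which encodes CD73, separated CAF2 from CAF1 and CD206neg from the other macrophages. CAF2 held 60.3, 40.4, 21.1, 60.2 and 29.4 CPM and CAF1 4.41, 4.37, 12.2, 3.84 and 3.54. The groups did not overlap, and tumour 8 was the highest in CAF1 and the lowest in CAF2. CAF1 was lower by a log2 fold change of -2.84 ± 0.40 (adjusted p 0.000324), and by -3.34 to -2.69 when any 1 library was left out. Endothelial libraries, at 16.2, 4.62, 3.02, 10.9 and 7.70 CPM, were also below all CAF2 libraries (-2.31 ± 0.67, adjusted p 0.00528).

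Without TMM factors the mean of Nt5e was highest in CAF2 (47.6 CPM, against 44.6 in CD206neg), and with them in CD206neg (47.2 ± 45, against 42.3 ± 17.8 in CAF2). That order rests on the CD206neg library of tumour 5, without which the CD206neg mean was 27.2 ± 5.18 (SD, n = 4), below that of CAF2. In the macrophages it stood at 127, 26.9, 20.9, 33.6 and 27.3 CPM in CD206neg, at 11.5, 5.88, 13.3, 6.90 and 0.437 CPM in CD206hi and at 11, 1.3, 9.77, 0.125 and 2.74 CPM in CD206pos. All CD206neg libraries were above all others, and tumour 5 was far above the other 4. In the CD206neg library of tumour 5 the fibroblast marker list summed to 55.5 CPM, against 21.9 to 91.0 over all CD206neg libraries and 55590 to 94672 CPM in CAF2. The pericyte and myoepithelial lists summed to 25.3 and 25.2 CPM there, the highest of CD206neg, and the MHC class II list to 1287, the lowest. The part of other cells in this Nt5e value was not tested. CD206hi was lower than CD206neg by -2.59 ± 0.74 (adjusted p 0.0315, and 0.00295 with the block) and CD206pos by -3.17 ± 0.76 (0.00949, and 0.000458 with the block). Without the CD206neg library of tumour 5 the first became -1.82 (adjusted p 0.143), and it was also not called without any 1 of the CD206hi libraries of tumours 6, 10 or 11 (0.0628 to 0.0736). The second stayed under the threshold when any 1 library was left out (0.00476 to 0.0407).

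Entpd1 (12495, chromosome 19, 40612366 to 40741602), which encodes CD39, had its highest mean in Endothelial and its lowest in CAF1. Endothelial libraries held 325, 272, 104, 145 and 272 CPM, CAF1 5.03, 6.73, 18.2, 12.5 and 31.0, and CAF2 29.0, 14.8, 20.4, 15.3 and 26.4. Every Endothelial library was above every fibroblast library, and the lowest, of tumour 8, also had the lowest sum of endothelial markers (1139 CPM, against 3008 to 3578 in the others; 8 of 8 genes). The next lowest, of tumour 10, had an endothelial sum of 3008 CPM. The pericyte list summed to 1182 CPM in the Endothelial library of tumour 8, the highest of that group, and to 208 in that of tumour 10. The part of other cells in these Entpd1 values was not tested. Endothelial exceeded CAF1 by a log2 of 3.94 ± 0.38 (adjusted p 2.51e-09) and CAF2 by 3.40 ± 0.37 (1.27e-08). CD206hi (128 ± 27.6 CPM), CD206neg (167 ± 16.4) and CD206pos (140.5 ± 33.7) overlapped one another and the Endothelial range, and no difference between them was called. Endothelial exceeded the macrophages by 0.64 ± 0.27 (adjusted p 0.0401, and 0.0232 with the block) in 4 of 5 tumours. That call was lost without the CD206neg libraries of tumours 6 and 8 (0.0511), without the Endothelial library of tumour 5, 6 or 11 (0.106 to 0.173), and without that of tumour 6 or 10 in CD206hi, 5 or 10 in CD206neg, or 6 or 10 in CD206pos (0.0505 to 0.0562).

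Per kilobase of exon, Entpd1 stood at 40.1 CPM in Endothelial beside 0.988 for Nt5e, at 29.9 beside 5.49 in CD206neg, and at 3.79 beside 4.91 in CAF2, the group where Nt5e had the higher mean. Within CD206neg, on the same scale, Lgals9 stood at 283, Sirpa at 126, Cd86 at 119, Havcr2 at 82.2, Cd47 at 51.4, Cd274 at 6.37, Cd80 at 3.06 and Pdcd1lg2 at 0.261 CPM per kilobase.

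CAF1 and CAF2 differed in 3 of 7 members tested (Nt5e, Sirpa and Cd47), all lower in CAF1, where 8.59% of 12149 genes were lower; Pdcd1lg2, Havcr2 and Cd86 were too low to be tested. Marker lists of other cells differed between the fibroblast groups in both directions. The pericyte list (8 of 8 genes) summed to 799 to 2301 CPM in CAF1 and 150.4 to 211 in CAF2, and the myoepithelial list (4 of 4) to 82.1 to 2755 and 0.0713 to 9.33. The dendritic list (7 of 9) summed to 45 to 152 CPM in CAF1 and 299 to 463 in CAF2, the monocyte list (5 of 6) to 138 to 328 and 347 to 563, and the endothelial list (8 of 8) to 34.2 to 63.0 and 57.5 to 112. The dendritic list includes Dpp4, whose fibroblast levels are given below. In CAF2 the means of Ccr7, Ccr2 and Pecam1, from these lists, were 0.0242, 0.108 and 1.47 CPM. A pan-leukocyte list (3 of 3) summed to 2.45 to 7.85 CPM in CAF1 and 0.926 to 4.61 in CAF2. The part of other cells in the differences of Nt5e, Sirpa and Cd47 was not tested. Endothelial was called higher than CAF1 in 2 members (Entpd1 and Lgals9), where 15.9% of genes were higher, and lower in 2 (Cd80 and Sirpa), where 18.8% were lower. Against CAF2 it was higher in 1 (Entpd1; 23.7% of genes higher) and lower in 4 (Cd80, Sirpa, Cd47 and Nt5e; 22.3% lower and 46.0% in either direction).

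Other genes of extracellular purine metabolism were counted from a list. Of its 20 enzymes and transporters, 16 were tested in the fibroblasts, and CAF1 exceeded CAF2 in 3 and fell below it in 3, where 10.9% of all genes were higher and 8.59% lower, with a median log2 of 0.01, the same as over all genes. Entpd2, an ecto-ATPase related to CD39, stood at 263 ± 57.6 CPM in CAF2 and 92.7 ± 58.2 in CAF1 (log2 -1.49 ± 0.40, adjusted p 0.0199), and no macrophage group had a mean above 0.540 CPM. Dpp4, the surface peptidase CD26 that binds adenosine deaminase, stood at 316 ± 77.7 CPM in CAF2 and 18.7 ± 15.2 in CAF1 (-4.09 ± 0.61, 0.000503). Enpp1, which hydrolyses ATP to AMP and pyrophosphate, went the other way, at 77.4 ± 24.3 in CAF1 and 24.6 ± 4.31 in CAF2 (1.67 ± 0.21, 0.000187). In the macrophages, 4 of 15 tested enzymes and transporters were higher in CD206hi than in CD206neg and 1 was lower, where 6.14% of all genes were higher and 3.90% lower. The counts were the same for CD206pos, where 8.85% of all genes were higher and 5.85% lower. Slc28a2, a concentrative nucleoside transporter, stood at 45.4 ± 34.7 CPM in CD206hi, 43.5 ± 33 in CD206pos and 0.857 ± 0.67 in CD206neg, and Slc29a3, an equilibrative nucleoside transporter of internal membranes, at 61.8 ± 9.16, 66.5 ± 16.0 and 122 ± 22.3. Slc29a1, the equilibrative transporter of the cell surface, was highest in Endothelial at 349.7 ± 128 CPM and exceeded the macrophages by a log2 of 1.61 ± 0.30 (adjusted p 3.06e-05).

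Of 19 listed receptors and channels for adenosine and ATP, 13 were tested over all groups, of which 8 were lower and 1 higher in fibroblasts than in macrophages, where 30.8% of all genes were lower and 37.3% higher. Within the fibroblasts 7 of the list passed the filter, and genes too low there could hardly come out higher. Adora2b, an adenosine receptor, stood at 135 ± 41.3 CPM in CD206pos, 111 ± 14.5 in CD206neg, 78.5 ± 20 in CD206hi, 78.6 ± 12.3 in CAF2, 24.6 ± 6.43 in CAF1 and 1.17 ± 1.70 in Endothelial. CAF1 was below CAF2 by -1.66 ± 0.20 (adjusted p 0.000134). P2rx4, an ATP-gated channel, and P2ry6, a receptor of UDP, were macrophage transcripts, with means of 192 to 249 and 161 to 194 CPM there and at most 54.6 and 1.46 CPM elsewhere. Panx1, a channel that releases ATP, was highest in CAF2 at 117 ± 41.3 CPM, against 51.0 ± 22.5 in CAF1 (-1.19 ± 0.35, adjusted p 0.0304).

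**Figure D4:**
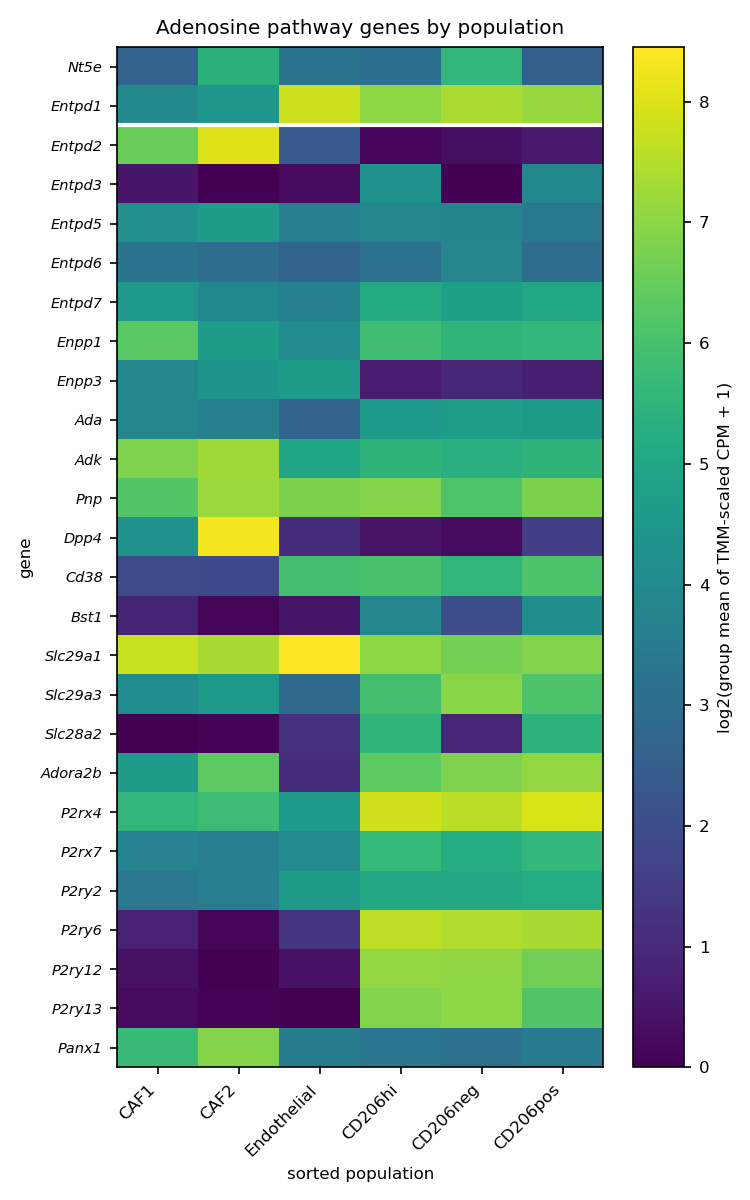
Mean of TMM-scaled CPM over 5 libraries, as log2(mean + 1), for Nt5e and Entpd1 (above the white line) and for the listed adenosine and ATP genes with a mean of at least 10 CPM in some population. Entpd2, Dpp4 and Panx1 are brightest in CAF2, as Nt5e is within the fibroblasts, and Slc29a1 is brightest in Endothelial.

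Of 27 other co-signalling ligands listed, 18 were tested in the macrophages. CD206hi was higher than CD206neg in 1 and lower in 2, where 6.14% and 3.90% of all genes were. CD206pos was higher in 3 and lower in 2, where 8.85% and 5.85% were. Icosl, the ligand of ICOS, stood at 59.9 ± 18.3 CPM in CD206neg, 18.9 ± 4.40 in CD206hi and 21.9 ± 9.57 in CD206pos, and Lgals3, which encodes galectin-3, at 4298 ± 2042, 1266 ± 499 and 1081 ± 564 CPM. Both were called lower in each CD206+ group. Tnfsf14, the ligand LIGHT, was higher in CD206pos (30.7 ± 16.8 CPM) than in CD206neg (6.98 ± 4.68; log2 2.17 ± 0.58, adjusted p 0.0178). Vsir, which encodes VISTA, was at 266 to 286 CPM in the means of the macrophage groups and at most 23.1 CPM elsewhere. Cd200, whose receptor restrains myeloid cells, was highest in Endothelial (159 ± 23.2 CPM), then in CAF2 (52.1 ± 14.2) and CAF1 (24.6 ± 6.85), and below 1 CPM in the mean of each macrophage group.

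Of 15 receptors for these ligands on lymphocytes, 9 were analysed; Ctla4 and Tigit were among those not analysed here. The highest of the 9 was Tnfrsf9, the stimulatory receptor 4-1BB, at 22 ± 18.5 CPM in CD206neg and 16.4 ± 15.5 in CAF1, while no other group had a mean above 5.48 CPM. Pdcd1, the receptor of PD-L1 and PD-L2, stood at 13 ± 10.1 CPM in CD206neg, 1.52 ± 2.41 in CD206hi and 2.22 ± 1.88 in CD206pos. Neither gene was called between CD206neg and the CD206+ groups. Of the 7 receptors tested in macrophages, 0 were lower than in CD206neg in either CD206+ group. Among all genes, 3.90% were lower in CD206hi and 5.85% in CD206pos. CD206hi was higher in 1 receptor and CD206pos in 2, where 6.14% and 8.85% of all genes were. Cd226, an activating receptor, was highest in CD206pos, at 12.5 ± 12.5 CPM against 0.337 ± 0.48 in CD206hi (log2 -5.36 ± 0.99, adjusted p 0.0333) and 0.0840 in CD206neg. Of 12 markers of T and NK cells, 5 were analysed, without Cd3d, Cd3e and Cd3g; the 5 summed to 45.4 to 71.6 CPM in CD206pos, 22.9 to 38.4 in CD206hi and 26.7 to 37.4 in CD206neg. They did not run alike. In the same order of groups, the means were 33.4, 7.91 and 1.12 CPM for Cd2 but 22.1, 18.7 and 25.0 for Cd4.

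In the phagocytosis list, 16 of 19 genes were tested, of which fibroblasts were lower than macrophages in 8 and higher in 6, where 30.8% of all genes were lower and 37.3% higher. Within the fibroblasts 9 of the list passed the filter, and genes too low there could hardly come out higher. Thbs1 and Thbs2, which encode thrombospondins, the first a secreted ligand of CD47, stood at 848 ± 225 and 775 ± 456 CPM in CAF1 and 636 ± 118 and 465 ± 108 in CAF2, while no macrophage group had means above 29.1 and 1.93 CPM. Pirb, an inhibitory receptor for MHC class I, was lower in CD206neg (51.9 ± 13.8 CPM) than in CD206hi (232 ± 120.0; log2 2.15 ± 0.33, adjusted p 0.000366) and CD206pos (215 ± 96.9; 2.05 ± 0.33, 0.000465). Qpct, a glutaminyl cyclase, was higher in CAF2 (213 ± 42.1 CPM) than in CAF1 (47.2 ± 25.1, log2 -2.17 ± 0.29, adjusted p 0.000258).

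Over the 30 libraries, the genes whose levels ran closest to each member's were ranked among 9835 genes by Pearson's r of log2(CPM + 1), which mostly reflects the contrast of macrophages with other cells and is given as a description. Gpr132 ran closest to Cd274 (0.972), F10 to Pdcd1lg2 (0.907), Rasal3 to Havcr2 (0.994), Arhgdia to Lgals9 (0.909) and Cln8 to Cd80 (0.958). Lilrb4a ran closest to Cd86 (0.997), Rassf5 to Sirpa (0.982), Ifi202b to Cd47 (0.856), Abce1 to Nt5e (0.805) and Sh3tc1 to Entpd1 (0.938). Cd226 was among the 3 closest to Pdcd1lg2 (0.867) and Tnfsf8 among the 3 closest to Nt5e (0.762).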

How the data were processed

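RNA of sorted cells was amplified with SMARTseq v4 and sequenced, per the labels' protocols. The submitters' processing notes name Trimmomatic 0.36, HISAT2 2.0.4, SAMtools 1.3.1, DESeq2 1.26 and mm10; no source used here gives the counter, its strand setting or its annotation, so reads of overlapping or near-identical genes could be misassigned. The deposited values are raw counts per Entrez gene (whole numbers, with at least 72 per gene over all libraries); symbols matched 14104 of 14118 genes.

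Counts were tested with edgeR 4.0.16 (limma 3.58.1, R 4.3.3; filterByExpr, TMM, quasi-likelihood, Benjamini-Hochberg over all genes) in 3 fits: 10 fibroblast libraries (12149 genes), 15 macrophage libraries (11052) and all 30 (13610), for 8 comparisons. DESeq2 1.42.0 was an alternative. Fits were tested on simulated data. Populations of 1 number come from the same animal; deviations of same-tumour libraries correlated at 0.0205 to 0.381 in fibroblasts and 0.111 to 0.648 in macrophages, and the fit with tumour as a block is an alternative. Alternatives also changed the factors (RLE, library totals), the filter, the libraries in the fit and each replicate, and a further one dropped tumours 6 and 8 from CD206neg. The fits that left out libraries had no block. With n = 5 and 6292411 to 11957076 counts per library, a count of 3 is the floor used, for counting error only.

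The members and all gene lists were chosen with earlier results of these data known. Besides the members, genes were named by rule: per list, up to 5 with the highest mean and, per comparison, up to 2 called in each direction with the largest change and a mean of at least 10 CPM; marker lists by their sums and first 2 genes; and the 3 genes most correlated with each member. Other genes (the Sirpa paralogs, genes absent from the lists and those whose levels bear on a gate) were named after their values were seen.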

Additional observations from a re-analysis of the deposited data

Results flagged for a closer look

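In 9 of 59 groups of 5 libraries with any count, 1 library stood apart from the other 4 by Dixon's criterion at 95%, which chance gives in about 1 in 20 groups of normally distributed values. That rate does not hold for groups near 0 counts. Where the other 4 libraries are at 0, as for Pdcd1lg2 and Havcr2 in CAF2, the 1 above 0 always stands apart. The 9 are therefore not compared with it. Levels are TMM-scaled CPM. In the CD206neg library of tumour 5, Nt5e stood at 127, against 20.9 to 33.6 in the others, and in the CAF1 library of tumour 8 at 12.2, against 3.54 to 4.41. Cd86 stood at 748 in the CD206neg library of tumour 6, against 321 to 378, and at 1.23 in the CAF1 library of that tumour, against 0.0679 to 0.330. Cd47 stood at 403 in the CAF1 library of tumour 11, against 229.8 to 267. The others rest on few counts: Pdcd1lg2 stood at 1.47 in the CD206hi library of tumour 6, against 0 to 0.257, and at 0.242 in its CAF2 library, against 0. Cd80 stood at 0.295 in the Endothelial library of tumour 6, against 0 to 0.0847, and Havcr2 at 0.0839 in the CAF2 library of tumour 8, against 0. Of the 9, 5 were libraries of tumour 6.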

How the results depend on the processing

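Apart from leaving out single libraries, 460 results kept their direction and call, 9 reversed, 11 gained and 12 lost the call; leaving out 1 library at a time gave 1115, 14, 4 and 37. The results that reversed were small and not called, except Lgals9 in Endothelial against macrophages. With library totals, the log2 difference was -0.012 for Cd274 in CAF1 against CAF2, 0.0712 for Sirpa in CD206hi against CD206neg, 0.12 for Cd47 in Endothelial against CAF1, 0.29 for Cd47 in fibroblasts against macrophages, and 0.0777 for Lgals9 and 0.017 for Nt5e in Endothelial against macrophages. Cd47 in fibroblasts against macrophages was 0.023 with DESeq2 and 0.022 with RLE factors, and Cd274 in CAF1 against CAF2 was -0.016 with the replicate block. Without 1 library, Cd274 ranged from -0.25 to 0.33 in CAF1 against CAF2, -0.14 to 0.43 in Endothelial against CAF1 and -0.0822 to 0.451 in Endothelial against CAF2; Havcr2 from -0.19 to 0.72 in CD206hi against CD206pos; Sirpa from -0.375 to 0.103 in CD206hi against CD206neg; and Cd47 from -0.107 to 0.0177 in fibroblasts against macrophages. Counts moved as follows. CD206hi against CD206pos called 21 genes, but 82 with DESeq2, 36 with all libraries in the fit, 97 with the block and 5 to 48 without 1 library (5 without CD206pos of tumour 10, 48 without that of tumour 8), and 0 members, but 2 with DESeq2 or the block and 0 to 1 without 1 library. CD206hi against CD206neg called 1110 genes, but 729 with library totals, 1791 with the block and 545 without the CD206neg libraries of tumours 6 and 8, and 4 members, but 0, 4 and 1, and 2 to 4 without 1 library. CD206pos against CD206neg called 1625 genes, but 920, 2800 and 930, and 5 members, but 5, 8 and 3. The block, which pairs libraries of 1 animal, changed no member's call in the other 6 comparisons. With library totals the all-gene median rose from 0.00 to 0.43 in Endothelial against CAF1 and from 0.17 to 0.89 against macrophages, and the split of higher and lower calls went from 679 and 431 to 574 and 155 (CD206hi against CD206neg), 978 and 647 to 766 and 154 (CD206pos against CD206neg), 2165 and 2557 to 3258 and 1462 (Endothelial against CAF1), 3230 and 3029 to 4167 and 1739 (Endothelial against CAF2), 5079 and 4191 to 5991 and 2704 (fibroblasts against macrophages) and 4974 and 3363 to 8187 and 1691 (Endothelial against macrophages). The cause of these changes was not tested. Pdcd1lg2, at 0 to 43 counts, is limited by depth.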
